A study of Mus musculus with 6 samples.

Results

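The cardiac dyad and its calcium release complex were followed through 10 genes: Ryr2, Casq2, Trdn, Asph, Jph1, Jph2, Fkbp1b, Sri, Cacna1c and Cacnb2. The members were every gene probe on the arrays whose RefSeq accession maps to one of these symbols, which gave 16 of 55681 probes and 10 of 20128 genes with a symbol. Asph had 4 probes, Trdn, Fkbp1b and Cacnb2 had a pair each, and the other 6 genes had 1 probe. RNA of whole hearts from C57/B6 mice aged 8 weeks was labelled with Cy3 and hybridised to 1-colour Agilent mouse arrays, with 1 array per heart. The 3 KO-labelled hearts had the genotype PHD2/3f/f; Cre+/- and the 3 control hearts PHD2/3f/f; Cre-/-, so both groups carried the floxed alleles of PHD2 and PHD3. These alleles belong to the genes Egln1 and Egln3, which encode prolyl hydroxylases that tag hypoxia-inducible factors (HIF) for breakdown in the presence of oxygen. No treatment is given for these hearts, and the labels leave out the Cre driver, any inducer, the deleted exons and the sex of the mice. They call the replicates biological. One label field has the heart RNA prepared on columns, and another describes a blood RNA kit with globin removal.

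In a heart muscle cell the dyad is the place where a T-tubule, an inward fold of the surface membrane, lies close against the sarcoplasmic reticulum, the internal calcium store. At each beat calcium enters through L-type channels in the T-tubule and opens ryanodine receptors across the gap, which release the stored calcium that drives contraction. Junctophilins hold the opposed membranes at this distance, calsequestrin binds calcium inside the store, triadin and junctin tie it to the release channel, and small regulators such as FKBP12.6 and sorcin act on the channel from the cytosolic side.

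The values below are log2 signals relative to the 75th percentile of each array, and differences are KO-labelled minus control on that log2 scale, tested probe by probe with limma and adjusted by the Benjamini-Hochberg method over all 26068 probes that passed the filter on dim signal, with 3 hearts per group throughout. The arrays had 46.3% to 51.0% of probes well above background and no saturated member probe. They lay on 1 slide read in 1 scan, with the KO-labelled and the control arrays in different columns of positions, so position and group cannot be told apart. Egln1 was -0.39, 0.29 and 0.06 in KO-labelled hearts, against 1.27, 1.39 and 0.99 in control hearts, a difference of -1.23 (limma, adjusted p = 0.00651). Both Egln3 probes lay higher in the KO-labelled hearts, by 1.98 and 1.87 (limma, adjusted p = 0.00161 and 0.00126), which at face value goes against the label. Egln3 is itself a HIF target and the position of its probes relative to the deleted part was not given, so directions are given for the groups as labelled. Every member probe passed the filter, which asked that all 3 arrays of a group read the probe well above background. Of the 16, 13 were above background on all 6 arrays and 3 passed through 1 group, namely 1 probe each of Trdn, Jph1 and Fkbp1b.

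Most of the complex lay lower in the KO-labelled hearts. Judged by each gene's brightest probe, 7 of the 10 genes fell (Ryr2, Casq2, Trdn, Asph, Jph1, Jph2 and Cacna1c), 2 rose (Fkbp1b and Sri) and Cacnb2 did not pass. Over all 13184 genes tested, 41.5% passed the same threshold, 19.0% higher and 22.6% lower, so a call alone is common on these arrays. The groups did not overlap for any of the 10 genes, against 59.2% of all genes. The median difference of the 10 genes was -0.81, against -0.07 over all genes. By probe, 3 of 16 rose, 8 fell and 5 did not pass, where 38.2% of all probes passed, 15.1% higher and 23.1% lower, and the groups were apart for 14 of 16 probes, against 55.0% of all probes. The differences ranged from -1.86 at an Asph probe to 1.66 at an Fkbp1b probe. For a single probe the smallest p of an exact permutation test with this number of hearts is 0.1, so these calls rest on a spread pooled across probes. One of the 3 probes that rose (Fkbp1b) and 1 of the 8 that fell (Jph1) passed the filter through 1 group, the one in which they were brighter. The number of member genes called lower was 4 without control heart 3 and 1 with the arrays set level on cardiomyocyte markers. The number called higher was 1 without control heart 1. Without the filter on dim probes 1 gene was called higher and 3 lower. These are whole hearts, so fewer cells of a type and less RNA per cell cannot be told apart.

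**Figure D1:**
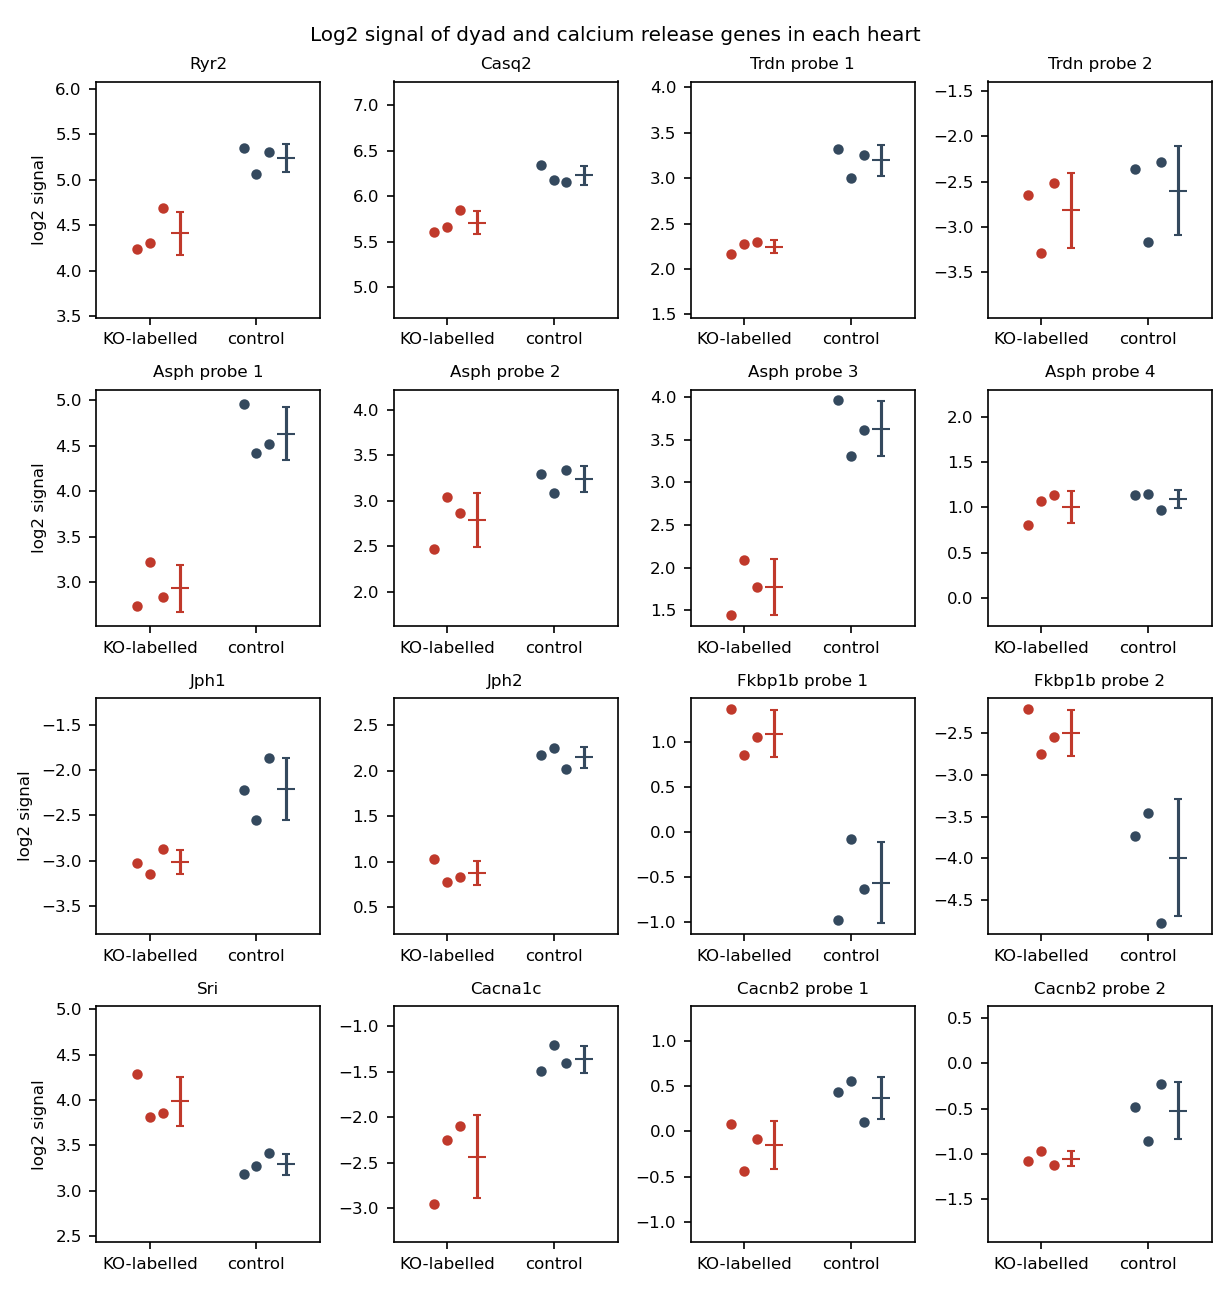
Log2 signal after subtraction of each array's 75th percentile (vertical axis, its own range in each panel) of all 16 member probes, 1 point per heart, with the 3 KO-labelled hearts left of the 3 control hearts and the mean ± SD beside them; where a gene has several probes, probe 1 is the brightest. The groups are apart in 14 of the 16 panels and mix at Trdn probe 2 and Asph probe 4, with the Fkbp1b and Sri probes higher in the KO-labelled hearts.

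**Figure D2:**
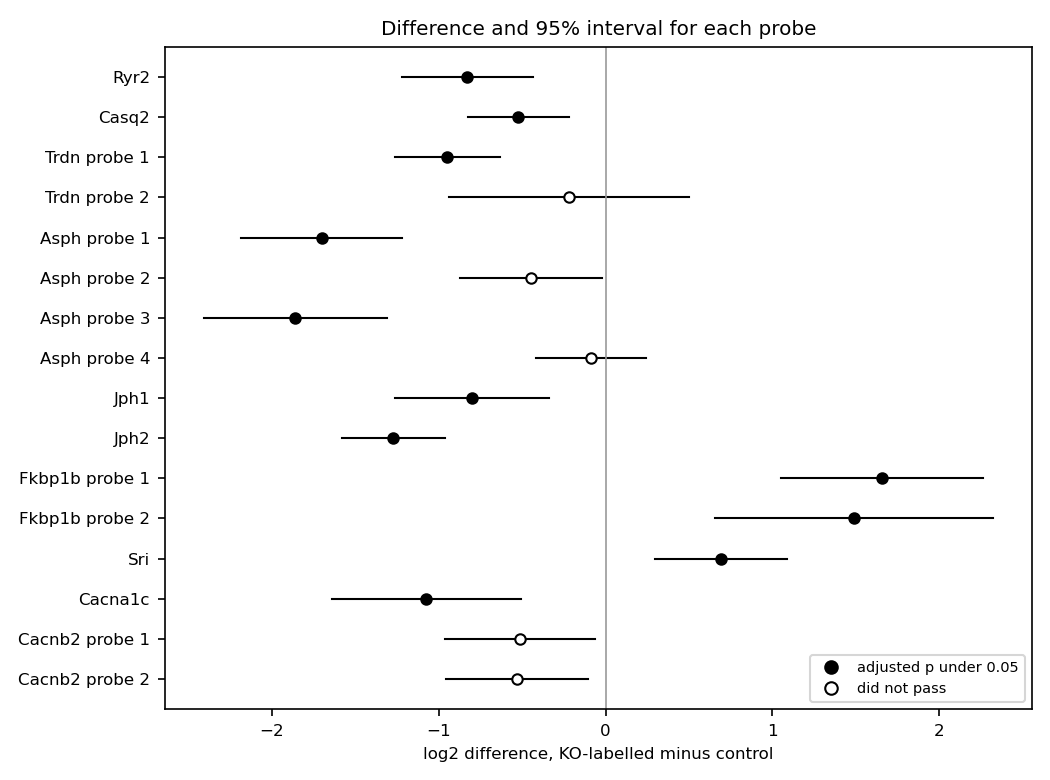
Log2 difference, KO-labelled minus control, of all 16 member probes with 95% confidence intervals from the limma fit (n = 3 hearts each); filled points have an adjusted p under 0.05. The intervals of the Fkbp1b and Sri probes lie above 0, and those of a Trdn and an Asph probe cross 0.

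Ryr2 encodes the cardiac ryanodine receptor, the channel that lets calcium out of the store. Its probe (NM_023868) read 4.24, 4.30 and 4.68 in KO-labelled hearts, against 5.35, 5.06 and 5.31 in control hearts. Every KO-labelled heart was below every control heart, and the difference was -0.83 ± 0.17 (SE, 95% confidence interval -1.22 to -0.44), or 1.78-fold lower (limma, adjusted p = 0.0108). It did not pass without the filter on dim probes (adjusted p = 0.0532).

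Casq2 encodes cardiac calsequestrin, the calcium buffer inside the store, and its probe (NM_009814) was the brightest of the 16. It read 5.60, 5.67 and 5.85 in KO-labelled hearts, against 6.35, 6.18 and 6.16 in control hearts. The groups were apart by a modest margin, a difference of -0.52 ± 0.13 (SE) or 1.44-fold lower (limma, adjusted p = 0.0202). Before any scaling between arrays the deposited intensities overlapped, at 11454, 9485 and 11386 in KO-labelled hearts and 12008, 14549 and 10553 in control hearts. This call was also the one most often lost: the adjusted p was 0.0698 after quantile normalization, 0.0616 after cyclic loess and 0.202 with the arrays set level on spike-in probes. It was 0.0524 without KO-labelled heart 1, 0.0814 without control heart 1 and 0.0584 without control heart 3.

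Trdn encodes triadin, which anchors calsequestrin to the ryanodine receptor. Its brighter probe (NM_029726) read 2.16, 2.27 and 2.30 in KO-labelled hearts, against 3.32, 3.00 and 3.26 in control hearts. The KO-labelled hearts lay close together and well below the controls, a difference of -0.95 ± 0.13 (SE) or 1.93-fold lower (limma, adjusted p = 0.00421). The other probe was near background, at -2.65, -3.29 and -2.52 in KO-labelled hearts, where 2 of 3 arrays were well above background, and -2.36, -3.16 and -2.28 in control hearts. It overlapped between groups and did not pass (difference -0.22, 95% confidence interval -0.94 to 0.50, limma, adjusted p = 0.593). The difference between the 2 probes' changes, -0.73 ± 0.26 (SE), did not pass either (limma, adjusted p = 0.149), but did after normexp background correction, at -0.69 (adjusted p = 0.00347). With the gene taken as the mean of its probes, Trdn differed by -0.58 (adjusted p = 0.0521).

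The Asph locus makes several proteins from one gene: junctin, which like triadin sits beside the release channel, junctate, a calcium-binding protein of the reticulum membrane, and the enzyme aspartyl beta-hydroxylase. Its 4 probes carry 4 different RefSeq accessions, and which of these products each probe reads was not given. The brightest (NM_133723) read 2.74, 3.22 and 2.83 in KO-labelled hearts, against 4.96, 4.42 and 4.52 in control hearts. The difference was -1.70 ± 0.20 (SE, 95% confidence interval -2.18 to -1.22), or 3.25-fold lower (limma, adjusted p = 0.00307), the largest fall among the 10 genes by their brightest probes. The probe for NM_001177855 behaved alike, at 1.44, 2.10 and 1.77 in KO-labelled hearts and 3.96, 3.31 and 3.62 in control hearts, a difference of -1.86 ± 0.23 (SE) or 3.63-fold lower (limma, adjusted p = 0.00328).

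The other 2 Asph probes did not pass. The probe for NM_001177850 read 2.47, 3.04 and 2.86 in KO-labelled hearts, against 3.29, 3.08 and 3.34 in control hearts. The groups lay just apart, and the difference of -0.45 ± 0.18 (SE) had an adjusted p of 0.0894 in limma. The probe for NM_023066 overlapped, at 0.80, 1.07 and 1.14 in KO-labelled hearts and 1.14, 1.15 and 0.97 in control hearts (difference -0.09, 95% confidence interval -0.42 to 0.24, limma, adjusted p = 0.647). Because all 4 probes were read on the same arrays, the gap between them within each array does not depend on a constant added to an array. The change of the brightest probe minus that of the NM_001177850 probe was -1.26 ± 0.16 (SE, limma, adjusted p = 0.0113 over all pairs of probes of 1 gene), and minus that of the NM_023066 probe it was -1.62 ± 0.18 (SE, adjusted p = 0.00865). It was not separable from that of the NM_001177855 probe (difference 0.16 ± 0.11 SE, limma, adjusted p = 0.424). Of all 3881 such pairs, 6.62% passed. Both calls held under every alternative run for pairs, with adjusted p up to 0.0471 and 0.0475.

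**Figure D3:**
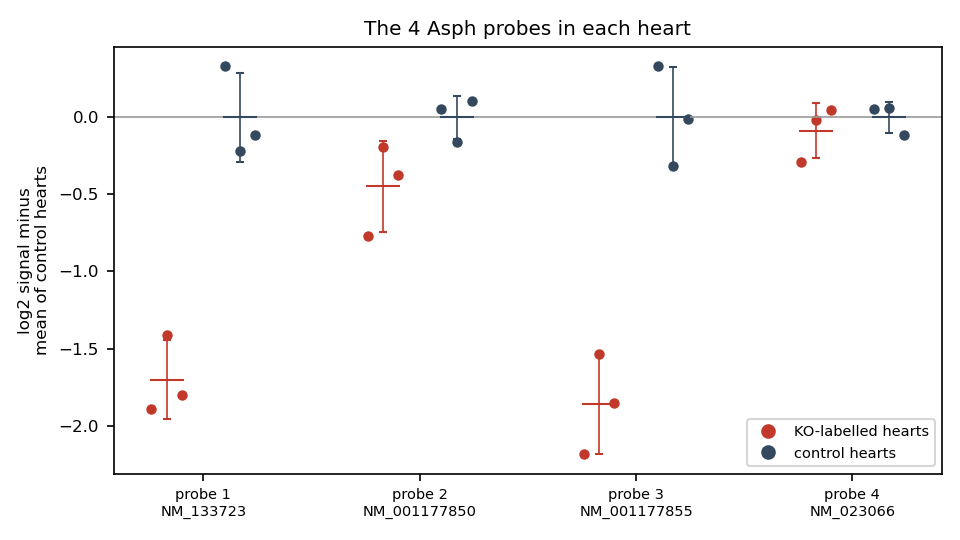
Log2 signal minus the mean of the control hearts (vertical axis) of the 4 Asph probes, each named by its RefSeq accession, 1 point per heart, KO-labelled hearts left of control hearts, with the mean ± SD. The KO-labelled hearts average -1.70 at the probe for NM_133723 and -1.86 at that for NM_001177855, and the hearts of both groups mix at the probe for NM_023066.

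Jph2 encodes junctophilin 2, the main cardiac protein that bridges the T-tubule and the store. It (NM_021566) read 1.03, 0.77 and 0.83 in KO-labelled hearts, against 2.17, 2.25 and 2.02 in control hearts. The gap between the groups was much wider than the spread within either, a difference of -1.27 ± 0.13 (SE) or 2.41-fold lower (limma, adjusted p = 0.00236). Jph1, the junctophilin best known from skeletal muscle, was dim, with 2 of 3 KO-labelled arrays and all control arrays well above background. Its probe (NM_020604) read -3.03, -3.14 and -2.87 in KO-labelled hearts, against -2.22, -2.55 and -1.87 in control hearts, a difference of -0.80 ± 0.19 (SE, limma, adjusted p = 0.0199). With normexp background correction the difference was smaller, at -0.40 (limma, adjusted p = 0.0353). The Jph1 probe passed the filter through the control hearts. The call was lost without that filter (adjusted p = 0.0800), and without KO-labelled heart 2 (adjusted p = 0.0506), control heart 1 (0.0652) or control heart 3 (0.0575).

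Fkbp1b encodes FKBP12.6, which binds the cardiac ryanodine receptor and is thought to stabilise its closed state. Unlike the channel gene itself, it was higher in the KO-labelled hearts: the brighter probe (NM_016863) read 1.36, 0.86 and 1.05 in KO-labelled hearts, against -0.98, -0.08 and -0.64 in control hearts. All KO-labelled hearts were above all control hearts, a rise of 1.66 ± 0.25 (SE, 95% confidence interval 1.05 to 2.26), or 3.15-fold higher (limma, adjusted p = 0.00517), and this call held under all alternatives run for it. The dimmer probe read -2.21, -2.76 and -2.55 in KO-labelled hearts, against -3.74, -3.46 and -4.78 in control hearts, where 1 of 3 arrays was well above background. This probe passed the filter through the KO-labelled hearts, so the size of its difference, 1.49 ± 0.35 (SE, limma, adjusted p = 0.0181), rests on control signals mostly at background. The difference was 0.17 after normexp background correction (adjusted p = 0.176), and the probe did not pass without the filter on dim probes (adjusted p = 0.0607) or without KO-labelled heart 1 (adjusted p = 0.0506). The changes of the 2 probes differed by 0.17 (limma, adjusted p = 0.806), but by 1.07 after normexp correction, which passed (adjusted p = 0.00531). Probe sequences were not used here, so cross-hybridisation with the close relative Fkbp1a was not examined.

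Sri encodes sorcin, a small calcium-binding protein that can reduce the opening of the ryanodine receptor. Its probe (NM_025618) read 4.29, 3.81 and 3.85 in KO-labelled hearts, against 3.19, 3.27 and 3.42 in control hearts. The lowest KO-labelled heart was above the highest control, a rise of 0.69 ± 0.17 (SE) or 1.61-fold higher (limma, adjusted p = 0.0193). It did not pass without control heart 1 (adjusted p = 0.0740), without the filter on dim probes (adjusted p = 0.0855) or with the replicate block (adjusted p = 0.0593).

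On the T-tubule side, Cacna1c encodes the pore of the cardiac L-type channel, Cav1.2. Its probe (NM_001159533) was dim and read -2.96, -2.25 and -2.10 in KO-labelled hearts, against -1.49, -1.20 and -1.40 in control hearts. The groups were apart, with KO-labelled heart 1 the lowest, and the difference was -1.07 ± 0.24 (SE) or 2.10-fold lower (limma, adjusted p = 0.0151). After normexp background correction the difference was smaller, at -0.61 (limma, adjusted p = 0.0121). The adjusted p was 0.0542 with the arrays set level on spike-in probes, 0.0581 without the filter on dim probes and 0.05005 without control heart 3.

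Cacnb2 encodes the main cardiac beta subunit, which brings the pore to the membrane and tunes its gating. Its brighter probe (NM_023116) read 0.08, -0.44 and -0.08 in KO-labelled hearts, against 0.43, 0.56 and 0.11 in control hearts, and the other read -1.08, -0.96 and -1.12 in KO-labelled hearts, against -0.48, -0.86 and -0.23 in control hearts. Both probes kept the groups apart by a narrow margin, with differences of -0.51 and -0.53 that did not pass (limma, adjusted p = 0.0713 and 0.0546). The mean of the 2 probes did pass (adjusted p = 0.0105), as did both probes with array weights (adjusted p = 0.0400 and 0.00115). The dimmer probe also passed with normexp correction, median scaling, quantile normalization or a filter asking for all 6 arrays (adjusted p from 0.0405 to 0.0499) and without control heart 2 (adjusted p = 0.0141).

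The heart muscle signal as a whole was also lower in the KO-labelled hearts. Of 9 cardiomyocyte markers 6 fell, 0 rose and 3 did not pass, where 22.6% of all genes fell and 19.0% rose. Their median was -0.56, against -0.07 over all genes. The markers differed in size, from -1.57 at Tnni3 to -0.22 at Mybpc3, which did not pass. Their summed level was 6636 to 8225 in KO-labelled hearts and 9727 to 13390 in control hearts, in multiples of each array's 75th percentile. With the arrays set level on these 9 markers, a scaling chosen after the data were seen, the brightest Asph probe remained lower (difference -1.06, limma, adjusted p = 0.00674). Fkbp1b (2.30, adjusted p = 0.00603) and Sri (1.34, adjusted p = 0.00923) remained higher. The Asph probe for NM_001177855 also stayed lower (-1.21, limma, adjusted p = 0.00457), but that for NM_023066 passed as higher (0.56, adjusted p = 0.0401). Ryr2 (-0.18, adjusted p = 0.357), Trdn (-0.30, adjusted p = 0.123), Jph1 (-0.15, adjusted p = 0.518), Jph2 (-0.62, adjusted p = 0.0632) and Cacna1c (-0.43, adjusted p = 0.174) kept their sign and did not pass, while Casq2 (0.12, adjusted p = 0.552) and Cacnb2 (0.14) changed sign without passing. This scaling raised the median of all probes by 0.65, and 89.6% of the probes it called were higher, against 39.6% as scaled above. Cyclic loess gave 54.0% higher, with a shift of 0.13, and spike-in scaling 59.0%, with a shift of 0.24. Under both, the brightest probe of every member kept its sign.

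**Figure D4:**
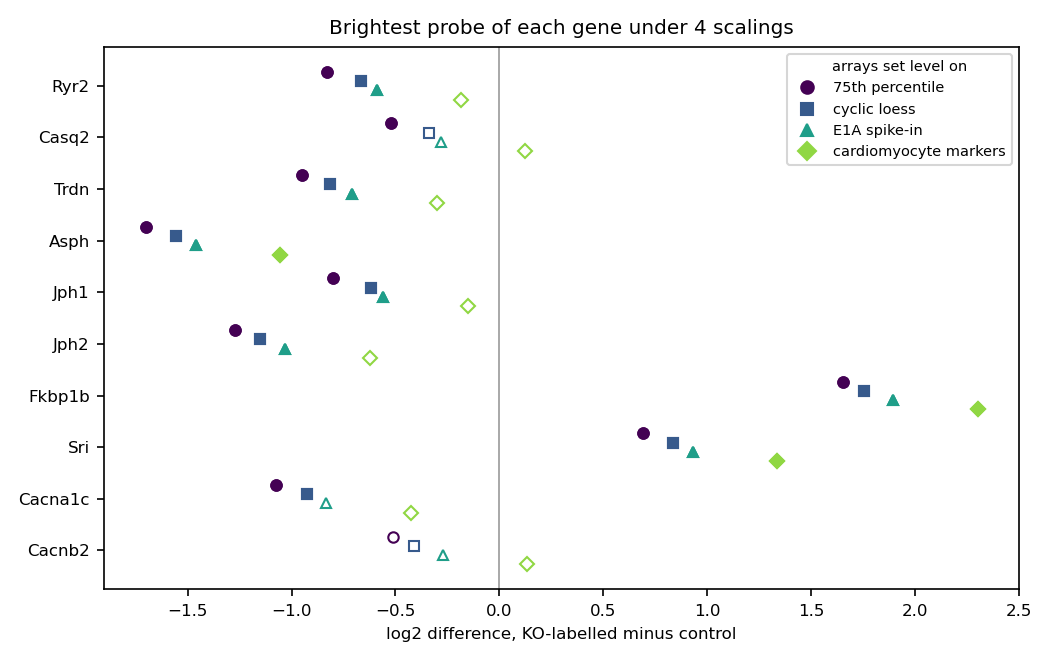
Log2 difference, KO-labelled minus control (horizontal axis), of the brightest probe of each member with the arrays set level in 4 ways, marked by shape; filled points have an adjusted p under 0.05. Asph stays below 0 and Fkbp1b and Sri above 0 with filled points in all 4, and Casq2 and Cacnb2 lie above 0 with open points under cardiomyocyte marker scaling.

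Markers of other cells differed from list to list. Over all genes by their brightest probe, 19.0% passed as higher and 22.6% as lower. Of 6 fibroblast markers 4 rose, 0 fell and 2 did not pass, with a summed level of 830.6 to 900.6 in KO-labelled hearts and 377.9 to 645.5 in control hearts. Of 5 endothelial markers none passed, with sums of 19.1 to 26.9 in KO-labelled and 24.9 to 27.7 in control hearts. Of 4 smooth muscle markers 2 rose and 1 fell, at 142.4 to 249.4 in KO-labelled and 109.5 to 125.5 in control hearts, and of 3 macrophage markers 2 rose and 1 fell, at 117.8 to 167.5 in KO-labelled and 91.6 to 106.4 in control hearts. Of 3 neuronal markers tested 1 rose and 1 fell, and 2 of the 5 listed were at background on all arrays. Among 9 skeletal muscle markers, the fast myosins Myh1, Myh2 and Myh4 and Myod1 were at background on all arrays, and of 4 tested Tnni2 and Mybpc2 rose and Pvalb fell; the sum was 19.9 to 33.5 in KO-labelled and 9.77 to 10.7 in control hearts. Some atrial markers split the hearts in another way. Sln was 6.01, 7.44 and 0.84 in KO-labelled hearts and -2.79, 7.30 and 5.42 in control hearts, low in KO-labelled heart 3 and control heart 1. Myl7 and Myl4 were low in the same hearts. Nppa was not low in KO-labelled heart 3, at 10.37, 10.73 and 10.46 in KO-labelled hearts and 7.12, 10.42 and 8.61 in control hearts. None of 4 atrial markers tested passed, and Bmp10 was not tested. The part of these cell types in the members' differences was not tested.

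Other genes of calcium release and entry were read from 3 lists that leave out the 10 members. Among genes that regulate or accompany the release channel, 23 of 24 had a probe and 22 were tested: 1 rose, 9 fell and 12 did not pass, with a median of -0.55. Over all genes by their brightest probe 41.5% passed, 19.0% higher and 22.6% lower. Hrc encodes a calcium-binding protein of the store that interacts with triadin. It read 5.95, 7.52 and 7.42 in KO-labelled hearts, against 9.65, 9.11 and 9.46 in control hearts, a difference of -2.44 ± 0.42 (SE) or 5.43-fold lower (limma, adjusted p = 0.00710). KO-labelled heart 1 stood well below the other two. The counter-ion channels of the store also fell, Tmem38a (difference -1.33, limma, adjusted p = 0.00375) and Tmem38b (-0.83, adjusted p = 0.00672). The dim kinase gene Camk2a fell too (-1.06, limma, adjusted p = 0.0164). Its relatives in the list were named after their values were seen. Camk2b fell (-0.86, limma, adjusted p = 0.0291). The brighter Camk2d (-0.08, limma, adjusted p = 0.729) and Camk2g (-0.23, adjusted p = 0.163) did not pass. The gene that rose, Calm2, encodes calmodulin and was named after its value was seen (0.52, limma, adjusted p = 0.0181).

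Of 17 genes of the L-type channel and its partners, 11 were tested: 2 rose, 3 fell and 6 did not pass, with a median of -0.16. These counts stand beside 19.0% higher and 22.6% lower over all genes. Cacna1s, the pore of the skeletal muscle channel, had the largest difference of these 11, at -0.95, 1.20 and 0.93 in KO-labelled hearts and 3.46, 2.61 and 3.08 in control hearts, a difference of -2.65 ± 0.56 (SE, limma, adjusted p = 0.0133). The beta subunit genes Cacnb3 and Cacnb1 rose, by 1.34 (limma, adjusted p = 0.00492) and 0.67 (adjusted p = 0.0218), in the opposite direction to the point estimates for Cacnb2. The alpha2delta subunit gene Cacna2d1 fell by 0.81 (limma, adjusted p = 0.0163), and Cacng7, named after its value was seen, fell by 0.79 (adjusted p = 0.0271). Cacna1s did not pass without control heart 1 (adjusted p = 0.0514).

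Of 16 genes of the junction and the T-tubule, 13 were tested: 3 rose, 6 fell and 4 did not pass, with a median of -0.53. Jsrp1 encodes a protein of the junctional reticulum known from skeletal muscle, and it read 2.56, 2.51 and 2.46 in KO-labelled hearts, against 0.47, 0.01 and 0.22 in control hearts, a rise of 2.28 ± 0.15 (SE, limma, adjusted p = 0.00126). Sypl2, which encodes mitsugumin 29 of the skeletal muscle triad, was well above background on all KO-labelled arrays and not on any control array. It passed the filter through the KO-labelled hearts, so only a bound on the processed signal is given, at least 1.78-fold higher in KO-labelled hearts. The bound takes the lowest signal well above background on each control array as its floor. Its measured means were -2.81 in KO-labelled and -5.10 in control hearts (limma, adjusted p = 0.00126). After normexp correction the difference was 0.24, smaller than that bound, and did not pass (limma, adjusted p = 0.108), so the bound depends on the processing. Bin1, which shapes T-tubules, also rose and was named after its value was seen (0.92, limma, adjusted p = 0.0107). Cmya5, which encodes a sarcomere-linked protein, fell (difference -1.63, limma, adjusted p = 0.00375). Of all genes, 41.5% passed by their brightest probe, 19.0% higher and 22.6% lower.

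The balance of the 3 lists depended on the scaling. With cardiomyocyte marker scaling, 7 genes of the release channel list were higher and 2 lower, with 5 higher and 1 lower in the L-type list and 5 higher and 2 lower in the junction list. The release channel list had 4 higher with normexp correction, quantile normalization, cyclic loess or spike-in scaling, and 5 lower with the last of these. Without the filter on dim probes the numbers lower in the 3 lists were 3, 1 and 3. Without control heart 1 the numbers lower in the 3 lists were 3, 0 and 3 and without control heart 3 they were 3, 1 and 3, and without KO-labelled heart 1 the release channel list had 5 lower. The numbers higher were 0 and 1 in the release channel and L-type lists without KO-labelled heart 3, control heart 1 or control heart 3. Camk2a and Cacna2d1 did not pass without control heart 1 or 3, and Cacnb1 not without those or KO-labelled heart 1 or 3.

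**Figure D5:**
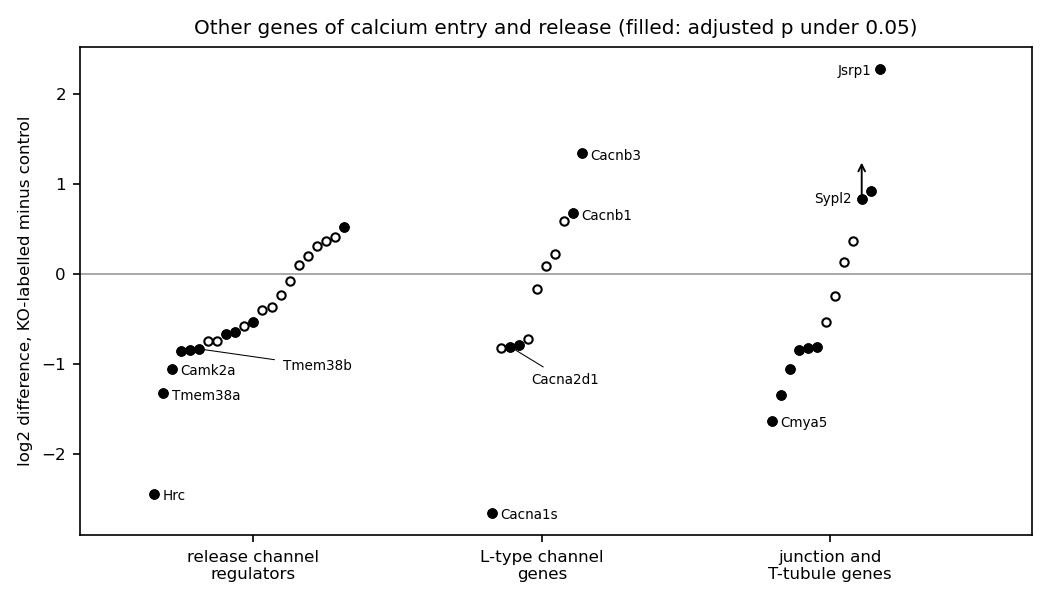
Log2 difference, KO-labelled minus control (vertical axis), of the tested genes of the 3 lists, each by its brightest probe and ordered within its list; filled points have an adjusted p under 0.05 and the labelled genes are those named in the text by rule. Sypl2 is drawn at its bound of 1.78-fold in the processed signal, with an arrow. Hrc (-2.44) and Cacna1s (-2.65) lie lowest, and Jsrp1 (2.28) is the highest of the genes measured in both groups.

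Among close relatives of the members, Ryr1 and Jph3 stayed near background on all 6 arrays, Jph4 was on 1 KO-labelled array only, and Ryr3 was not analysed here. Casq1, the skeletal muscle calsequestrin, overlapped between groups, at -2.05, -1.55 and -0.76 in KO-labelled hearts and -0.38, -0.91 and -0.84 in control hearts (difference -0.74, limma, adjusted p = 0.119), and passed as lower without KO-labelled heart 3 (adjusted p = 0.0290). The 2 probes for Fkbp1a, which encodes FKBP12, did not move together: the brighter differed by -0.37 and did not pass (limma, adjusted p = 0.0804), and the other rose by 0.69 (adjusted p = 0.0122). Their changes differed by -1.06 ± 0.15 (SE, limma, adjusted p = 0.0177 over all pairs). The brighter probe passed as lower without control heart 2 (adjusted p = 0.0285).

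Promoters were taken from RefSeq on mouse build GRCm38.p6, and 7 of the 10 members had one, 11 promoters in all. The 250 bases before the transcription start are shown for Ryr2 and Jph2, which fell, and Fkbp1b, which rose, since these 3 genes show both directions within the complex. Capitals mark the core of the HIF response element (ACGTG or GCGTG, searched on both strands, so CACGT or CACGC on the gene's own strand) and the half-site of thyroid hormone receptors (AGGTCA, or TGACCT on the other strand), the receptor being the one the series title names. All 3 genes lie on the minus strand, and the sequences read 5′ to 3′ along the gene.
Fkbp1b, chr12:4841574-4841823: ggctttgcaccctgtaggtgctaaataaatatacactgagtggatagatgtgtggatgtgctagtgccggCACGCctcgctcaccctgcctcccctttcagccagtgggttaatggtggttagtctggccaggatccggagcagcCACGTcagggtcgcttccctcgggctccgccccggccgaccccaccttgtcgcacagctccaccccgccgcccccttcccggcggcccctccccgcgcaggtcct
Ryr2, chr13:12106946-12107195: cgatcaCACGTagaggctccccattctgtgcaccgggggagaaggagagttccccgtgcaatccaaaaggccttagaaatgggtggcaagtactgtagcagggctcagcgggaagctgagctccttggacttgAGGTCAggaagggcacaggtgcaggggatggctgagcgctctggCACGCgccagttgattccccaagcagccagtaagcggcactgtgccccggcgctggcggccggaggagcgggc
Jph2, chr2:163397994-163398243: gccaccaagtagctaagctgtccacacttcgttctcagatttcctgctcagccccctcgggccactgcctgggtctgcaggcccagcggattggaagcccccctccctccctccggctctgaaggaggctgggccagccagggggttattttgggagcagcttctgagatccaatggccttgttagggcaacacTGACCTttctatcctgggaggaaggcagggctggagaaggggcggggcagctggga

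The Fkbp1b window held a HIF core of each form, 180 to 176 and 105 to 101 bases before the start, and no thyroid half-site. The Ryr2 window held HIF cores at 244 to 240 and 73 to 69 bases and a half-site at 117 to 112 bases before the start. The Jph2 window held a half-site at 56 to 51 bases and no HIF core. Over the 11 member promoters, 5 held at least 1 HIF core (1 each of Ryr2, Casq2, Fkbp1b, Cacna1c and Cacnb2) and 3 a thyroid half-site (Ryr2 and both of Jph2). The Jph2 windows overlap and hold the same site, so the half-site occurred in 2 of the 7 members with a promoter. Of 32851 promoters of the same length, 38.6% held a HIF core and 14.0% a half-site. The cores thus occurred in the window of a gene that rose and in those of genes that fell, and a match to these letters describes the sequence only.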

How the data were processed

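The deposited scanner files hold spot intensity on a linear scale and other columns of flags for spots above background, saturated or outlying, made with Agilent Feature Extraction 11.0.1.1 per the file headers. A value table, also deposited, holds log2 values; the submitters' processing notes name R 3.1.3, and its normalization, centring and the steps behind it are not given in the sources used here. Apart from 1 constant per array, 95.9% of its between-array differences matched those of the scanner log2 signals within 0.001, and 94.2% of its rows had median 0. Its column medians were -0.04, -0.05 and -0.02 for KO-labelled arrays and 0.09, -0.02 and 0.07 for control arrays. It served as an alternative.

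The processed signal of the scanner files was put on the log2 scale, outlier spots were dropped (73 probes left out), repeated spots averaged and each array's 75th percentile subtracted. Probes that all 3 arrays of either group read well above background entered limma 3.58.1 in R 4.3.3 (data.table, version 1.17.8), KO-labelled against control, 2-sided, with Benjamini-Hochberg adjustment over all probes at 0.05. A gene was called by its probe with the highest mean. Pairs of probes of 1 gene were fitted on their within-array difference. Probes were named through RefSeq accessions, which named 17065 of the tested probes and left 9003 unnamed. The fit was run on simulated data with independent errors and few changed probes. That simulation held no effect of scaling, position or cell types, so it cannot test these. The number of arrays limits the precision. The members and lists were chosen with earlier results of these data known. Named were all members, the targeted genes, paralogs and up to 4 passing genes with the smallest p from each list. One gene that this rule names is not reported here.

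Alternatives were normexp (offset 50, on median signals, since the files hold no mean signal), median, quantile, cyclic loess, E1A spike-in and cardiomyocyte marker scaling, the deposited table, other filters, gene values and variance models, array weights, the replicate block and leaving out each heart.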

Additional observations from a re-analysis of the deposited data

How the results depend on the processing

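Over the 16 member probes and their alternatives, 256 of 305 values kept their direction and side of the threshold, 28 lost a call, 9 gained one and 12 changed sign; the cause was not tested. Of the 11 member probes that passed, 3 kept their call under every alternative (2 of Asph and the brighter of Fkbp1b). Without a filter on dim probes, 1 gene was higher and 3 lower, 1 probe higher and 4 lower, and 4646 of all probes passed. In that run more probes are adjusted over and the pooled spread differs as well (SE of Ryr2 0.1965, against 0.165). Cardiomyocyte marker scaling left 1 gene and 2 probes lower. With array weights 17167 probes passed, and with normexp 773 pairs. Leaving out 1 heart gave 1 to 2 genes higher, 4 to 7 lower, 2 to 3 probes higher, 5 to 9 lower, 4999 to 10871 of all probes and 67 to 208 pairs. Of all probes 6600 passed without KO-labelled heart 3, 4999 without control heart 1 and 5244 without control heart 3. Pairs numbered 101, 146 and 67 without KO-labelled hearts 1, 2 and 3, and 69 and 99 without control hearts 1 and 3. Member probes lower numbered 5 without control heart 3.

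Deviations of same-numbered hearts from their group means did not correlate positively, at -0.16, -0.13 and -0.07. Those of differently numbered hearts correlated at -0.155 to 0.241. Deviations within a group of 3 are tied to balance, so this check cannot exclude a pairing. With the replicate block 1 member gene was higher, 6207 probes and 63 pairs passed, and Casq2 (adjusted p = 0.0670) and Sri (adjusted p = 0.0593) did not pass.

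Some signs changed. The Asph probe for NM_023066 was 0.024 with cyclic loess, 0.16 with spike-in scaling and 0.073 with array weights. With cardiomyocyte marker scaling it was 0.56 and passed as higher (limma, adjusted p = 0.0401). It ranged from -0.15 to 0.016 with 1 heart left out (positive without KO-labelled heart 1). The dim Trdn probe was 0.023 with spike-in and 0.43 with marker scaling, and -0.50 to 0.016 with 1 heart left out (positive without KO-labelled heart 2). Marker scaling also turned Casq2 (0.12), the Asph probe for NM_001177850 (0.20), both Cacnb2 probes (0.14 and 0.12) and the brighter Fkbp1a probe (0.28), which was 0.16 as the mean of its probes. The Cacnb2 pair was -0.016 with normexp, and -0.11, -0.05 and -0.26 without KO-labelled heart 1, KO-labelled heart 3 and control heart 3; the Fkbp1b pair was -0.16 without control heart 1 and up to 0.53 with another heart left out. Tests over genes give no count of probes, and a slide block could not be fitted with 1 slide. Dim probes (Jph1, Cacna1c and the second probes of Trdn and Fkbp1b) limit what can be read there.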
